A study of Oryza sativa Japonica Group with 6 samples.

Results

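Gibberellin is the plant hormone that promotes germination, stem elongation and the mobilization of grain reserves. GA 20-oxidases and GA 3-oxidases catalyse the last steps of its synthesis, and GA 2-oxidases inactivate it. The receptor GID1 binds the active hormone and then the DELLA protein SLR1, which represses the response. The F-box protein GID2 directs SLR1 to degradation, and GAMYB is a transcription factor that activates alpha-amylase genes in the aleurone of cereal grains. The 10 genes described here were chosen by their locus identifiers from the 55986 loci of the data, a rule that uses no measured value, although the set was proposed with earlier results of these data known. They comprise the 4 synthesis genes GA20ox1, GA20ox2 (SD1, the semidwarf gene of rice), GA3ox2 and GA3ox1, the 2 inactivation genes GA2ox1 and GA2ox3, and the 4 signalling genes SLR1, GID1, GID2 and GAMYB.

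RNA was sequenced in 3 samples of OEZ and 3 of ZH17. The samples were early rice seedlings, their buds some 5 mm long, that had been kept at 2 °C for 3 h. OEZ plants carried the IL112 allele of the lipid transfer protein gene OsLTPL159 under the cauliflower mosaic virus 35S promoter, which is active in most tissues, in the japonica variety Zhonghua17. ZH17 plants were nontransformed Zhonghua17. Each sample was a pool of 50 plants, both genotypes received the cold, and no unchilled sample belonged to the comparison, so the values describe genotypes after cold and not the response to cold. The labels give the OEZ samples 1 shared name, and the full form of that name is also used by the study for 3 overexpression lines. Whether the OEZ samples came from 1 transformation event is not given in the sources used here.

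OsLTPL159 itself (LOC_Os10g36160) had 2506, 2539.9 and 2502 FPKM (fragments scaled by transcript length and by the mapped reads of the library) in OEZ replicates 1, 2 and 3, against 141, 138 and 131 FPKM in ZH17 replicates 1, 2 and 3. FPKM holds no read counts, and the depth of the libraries relative to ZH17 replicate 1, read from the lowest values, ran up to 1.32. Libraries stood apart in their grain RNA. The 7 alpha-amylase loci of the marker list summed to 1.89, 233 and 2.05 FPKM in OEZ replicates 1, 2 and 3, against 82.3, 219 and 156 FPKM in ZH17 replicates 1, 2 and 3. The 11 glutelin loci, which encode grain storage proteins, summed to 1.80, 61.1 and 1.72 FPKM in OEZ, against 3.56, 24.0 and 21.1 FPKM in ZH17. OEZ replicates 1 and 3 were therefore nearly free of grain transcripts by both lists, whereas OEZ replicate 2 was not. The lists differed for ZH17 replicate 1, which was low in glutelins (3.56 FPKM) but not in alpha-amylases (82.3 FPKM). The 11 chlorophyll A-B binding loci, which mark green tissue, summed to 5748 to 6783 FPKM in OEZ and to 10131 to 10765 FPKM in ZH17, with 10 called lower and 1 called higher in OEZ, but the study chose these loci as changed from the same libraries. In bulk RNA of this kind, fewer cells of a type and less RNA per cell cannot be told apart.

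All 10 genes were in the files and 9 of them reached a mean of 0.5 FPKM over the 6 samples, the level above which loci were tested. GA3ox1 (LOC_Os05g08540, chromosome 5) did not. It was listed at 0 in all 3 OEZ samples and in 2 ZH17 samples, with 0.0903 FPKM in ZH17 replicate 2. GA3ox2 was thus the GA 3-oxidase gene of the set with measurable RNA in these seedlings.

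The levels of the genes, which FPKM gives per transcript length, spanned a wide range. The GID2 locus had the highest mean over the 6 samples (299 FPKM), followed by SLR1 (150.0 FPKM), GID1 (75.2 FPKM) and GA2ox3 (36.9 FPKM). No neighbours among these 4 overlapped in their sample values in either genotype. SLR1 exceeded GID1 by a ratio of means of 1.96 in OEZ and 2.02 in ZH17. The remaining genes lay far below, with GA3ox2 at 8.41, GA20ox1 at 7.17, GAMYB at 5.37, GA20ox2 at 3.81 and GA2ox1 at 0.918 FPKM. GA3ox2 and GA20ox1 overlapped in their sample values in both genotypes. GA20ox1 overlapped with GAMYB, and GAMYB with GA20ox2, in ZH17 but not in OEZ. Among the 22841 tested loci, the mean of the GID2 locus lay at the 98.2th percentile and that of GA2ox1 at the 7.39th percentile.

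**Figure D1:**
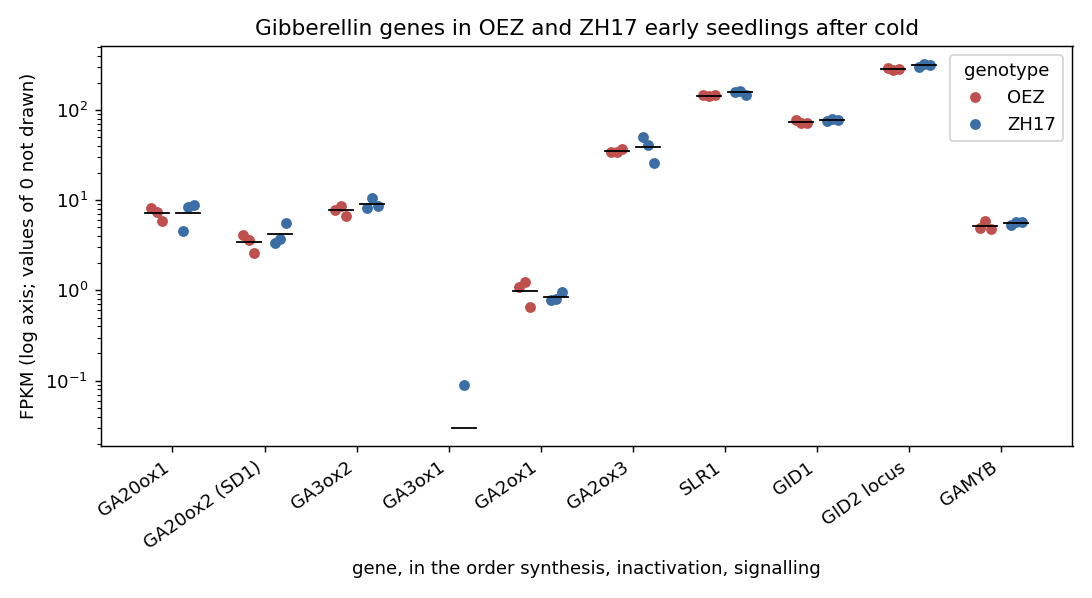
FPKM on a log axis for the 10 genes, with 1 point per sample (OEZ left, ZH17 right) and a bar at the mean of the 3 samples, zeros included. The GID2 locus, SLR1, GID1 and GA2ox3 sit above the other genes, GA3ox1 has a single point at 0.0903 FPKM, and the genotypes lie close together at each gene.

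The identity of the most abundant member is not settled by its identifier. The files name loci by MSU identifiers, which the RefSeq gene table at hand does not hold, so the symbols were searched by name. Of the 10 symbols, 5 were found (GA20ox2, SLR1, GID1, GID2 and GAMYB), all on the chromosome that the locus identifier gives. In that table the names GID2 and GF14E, a 14-3-3 protein gene, are both attached to 1 protein-coding gene on chromosome 2. A further protein-coding entry named GID2 lies wholly within that gene, as does a noncoding RNA entry named GF14E. The FPKM of LOC_Os02g36974 may therefore contain fragments of a 14-3-3 transcript, and it is called the GID2 locus here. How the fragments divide between the transcripts was not tested.

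None of the 9 tested genes passed the thresholds of the study between OEZ and ZH17, which required both a 1.5-fold difference and p under 0.05 after adjustment (limma with Benjamini-Hochberg adjustment over all tested loci). Of all tested loci, 2.98% were called by the same rule. The adjusted p of the 9 genes ran from 0.192 at the GID2 locus to 0.96 at GA20ox1. At an unadjusted p under 0.05, 1 of the 9 passed, the GID2 locus, as did 23.2% of all tested loci. The log2 fold changes (OEZ minus ZH17, on log2(FPKM + 0.1), a scale that understates changes of low genes) ran from -0.29 to 0.17. Their median was -0.11, beside 0.02 over all tested loci, and 2 of the 9 were positive, as were 53.3% of all tested loci. OEZ and ZH17 samples did not overlap in 2 of the 9 genes, against 29.2% of all tested loci.

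How large a difference could have been missed varied between the genes. For SLR1, GID1, the GID2 locus, GAMYB and GA3ox2, the 95% interval of the log2 fold change lay within a 1.5-fold change in either direction. For GA20ox1, GA20ox2, GA2ox1 and GA2ox3 the interval reached beyond it, only upward for GA20ox1 and GA2ox1 and only downward for GA20ox2 and GA2ox3. In that direction, a change of the size the study called could not be told from none in these 4 genes.

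**Figure D2:**
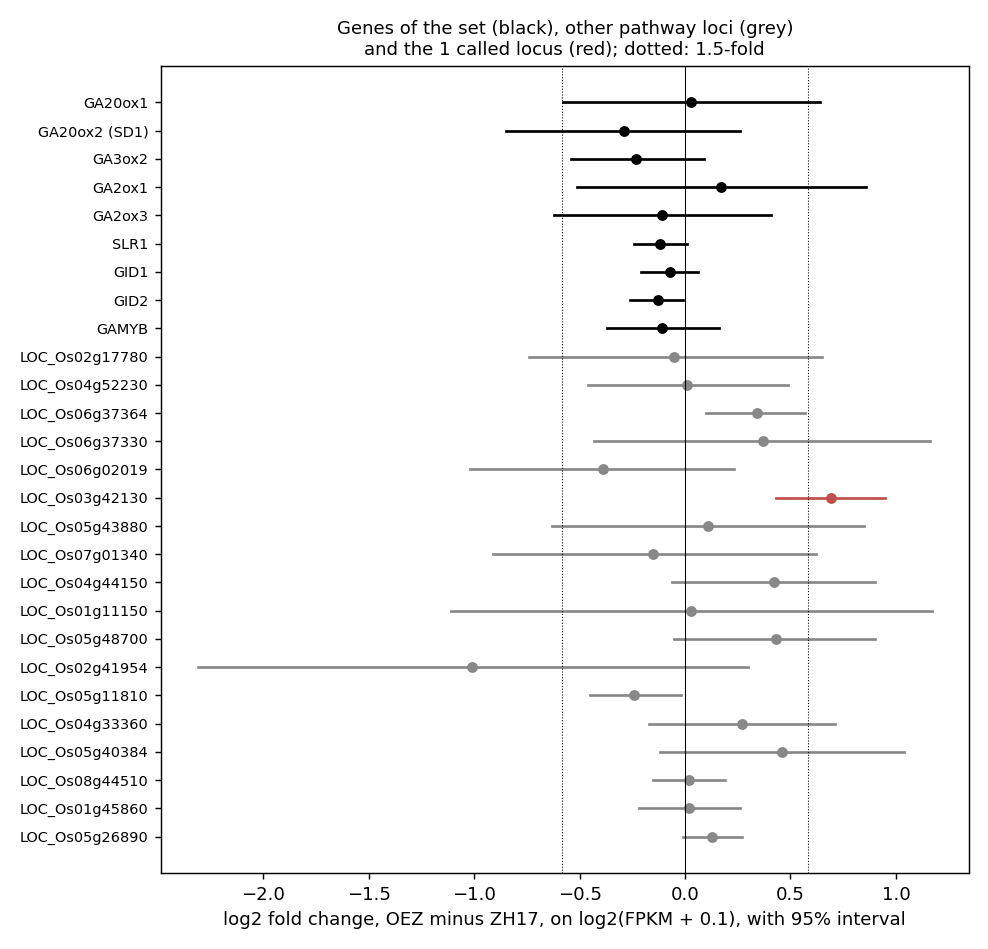
log2 fold change of OEZ over ZH17 with its 95% interval (limma) for the 9 tested genes in black and the 18 other tested loci of the pathway, 17 of them in grey, with dotted lines at 1.5-fold. The intervals of SLR1, GID1 and the GID2 locus are narrow and close to 0, those of GA20ox1, GA20ox2, GA2ox1 and GA2ox3 are wider, and LOC_Os03g42130, in red, is the locus that was called.

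Among the synthesis genes, GA20ox1 (LOC_Os03g63970, chromosome 3) had 8.11, 7.43 and 5.87 FPKM in OEZ replicates 1, 2 and 3, against 4.56, 8.32 and 8.74 FPKM in ZH17 replicates 1, 2 and 3. The OEZ values lay inside the range of ZH17, whose replicate 1 was the lowest sample. The log2 fold change was 0.03 (standard error 0.26, 95% interval -0.58 to 0.64), and its sign turned when OEZ replicate 1, OEZ replicate 2 or ZH17 replicate 1 was left out.

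GA20ox2, the SD1 gene (LOC_Os01g66100, chromosome 1), whose loss shortens the stem, had 4.06, 3.57 and 2.57 FPKM in OEZ, against 3.39, 3.71 and 5.57 FPKM in ZH17. The lowest sample was OEZ replicate 3, the highest was ZH17 replicate 3, and the other 4 samples lay together. On the log2 scale the difference was -0.29 (standard error 0.24, 95% interval -0.85 to 0.26, limma adjusted p = 0.502).

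GA3ox2 (LOC_Os01g08220, chromosome 1), which makes the active hormone, had 7.84, 8.67 and 6.70 FPKM in OEZ, against 8.13, 10.4 and 8.66 FPKM in ZH17. OEZ replicates 1 and 3, the samples nearly free of grain transcripts, were the lowest, and OEZ replicate 2 lay within ZH17. The fitted log2 fold change was -0.23 (standard error 0.13, 95% interval -0.54 to 0.09, limma adjusted p = 0.356).

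Of the inactivation genes, GA2ox3 (LOC_Os01g55240, chromosome 1) was the abundant one, 35.1 times the mean of GA2ox1 in OEZ and 46.1 times in ZH17. It had 34.1, 33.8 and 36.5 FPKM in OEZ, against 50.3, 40.5 and 25.9 FPKM in ZH17. The OEZ samples were nearly equal, with a coefficient of variation of 4.19%, and stood inside a wide ZH17 range with a coefficient of variation of 31.5%. The log2 fold change was -0.11 (standard error 0.22, 95% interval -0.62 to 0.41). It was 0.10 without ZH17 replicate 1 and -0.37 without ZH17 replicate 3, and neither passed the thresholds.

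GA2ox1 (LOC_Os05g06670, chromosome 5) had 1.09, 1.24 and 0.652 FPKM in OEZ, against 0.776, 0.803 and 0.951 FPKM in ZH17. OEZ held both the 2 highest samples and the lowest one. The log2 fold change was 0.17 (standard error 0.29, 95% interval -0.51 to 0.86), the largest positive value of the set, in the tested gene with the lowest level.

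The spread of ZH17 went in opposite directions for the GA 20-oxidases and GA2ox3. ZH17 replicate 1 had the lowest GA20ox1 and GA20ox2 and the highest GA2ox3 of the ZH17 samples, and ZH17 replicate 3 had the reverse. The ratio of GA2ox3 to GA20ox1 FPKM was 4.21, 4.55 and 6.22 in OEZ replicates 1, 2 and 3, against 11.0, 4.87 and 2.96 in ZH17 replicates 1, 2 and 3. Other inactivation loci differed between the same pair of ZH17 samples. Of the 11 tested inactivation loci, GA2ox1 and GA2ox3 included, 8 were higher in ZH17 replicate 1 than in replicate 3, as were 43.3% of all tested loci, and 5 were higher by at least 1.5 times, as were 7.51% of all tested loci. GA2ox3, from which this pair of samples was picked, is among both the 8 and the 5, so its part in these counts was fixed beforehand. LOC_Os02g41954 had 12.6 and 2.60 FPKM, and LOC_Os01g11150 had 5.33 and 1.18 FPKM, in ZH17 replicates 1 and 3. The root marker LOC_Os02g44310 fell in the same direction, with 1332, 1042 and 827 FPKM in ZH17 replicates 1, 2 and 3. It had 1492, 1322 and 1476 FPKM in OEZ replicates 1, 2 and 3. The part of root tissue in these values was not tested. The pattern among the ZH17 samples was noticed after the values had been seen, rests on single pools, and is given without a test.

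**Figure D3:**
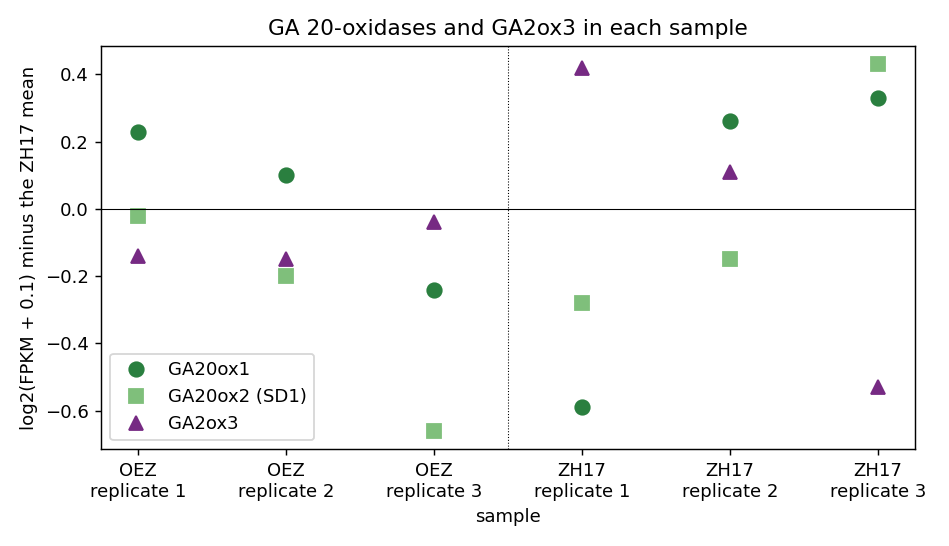
log2(FPKM + 0.1) of GA20ox1, GA20ox2 (SD1) and GA2ox3 in each sample, as the difference from the ZH17 mean of the gene. ZH17 replicate 1 is lowest in both GA 20-oxidases and highest in GA2ox3 among the ZH17 samples, replicate 3 is the reverse, and the OEZ values of GA2ox3 lie between -0.15 and -0.04.

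The 4 signalling genes had the smallest standard errors of the 9 tested genes, 0.05 to 0.11 on the log2 scale. SLR1 (LOC_Os03g49990, chromosome 3), the only DELLA repressor of rice, had 145, 141 and 146 FPKM in OEZ, against 159, 162 and 148 FPKM in ZH17. All 3 OEZ values were below the ZH17 values, but the nearest samples, OEZ replicate 3 and ZH17 replicate 3, were 145.8 and 147.8 FPKM. The means were 144 ± 2.83 FPKM in OEZ and 156 ± 7.31 FPKM in ZH17 (SD, n = 3 pools each), and the log2 fold change was -0.12 (standard error 0.05, 95% interval -0.24 to 0.01). The limma adjusted p was 0.249, and an exact two-sided permutation test gave p = 0.1, the smallest that 3 pools against 3 allow.

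GID1 (LOC_Os05g33730, chromosome 5), the receptor, had 78.1, 71.2 and 70.7 FPKM in OEZ, against 75.7, 79.1 and 76.6 FPKM in ZH17. OEZ replicates 2 and 3 were below ZH17, and OEZ replicate 1 lay within it. The difference on the log2 scale was -0.07 (standard error 0.06, 95% interval -0.21 to 0.06, limma adjusted p = 0.489).

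The GID2 locus (LOC_Os02g36974, chromosome 2) had 294, 277 and 285 FPKM in OEZ, against 299.7, 321 and 318 FPKM in ZH17. The samples of the genotypes did not overlap, with means of 285 ± 8.49 FPKM in OEZ and 313 ± 11.5 FPKM in ZH17 (SD, n = 3 pools each). Its log2 fold change was -0.13 (standard error 0.05, 95% interval -0.26 to -0.01), a fold of 0.911, and it did not pass after adjustment (limma adjusted p = 0.192). Its exact two-sided permutation p was also 0.1.

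GAMYB (LOC_Os01g59660, chromosome 1) had 4.94, 5.86 and 4.73 FPKM in OEZ, against 5.24, 5.78 and 5.66 FPKM in ZH17. OEZ replicate 2 was the highest of the 6 samples, and OEZ replicates 1 and 3 were the lowest. The log2 fold change was -0.11 (standard error 0.11, 95% interval -0.37 to 0.16, limma adjusted p = 0.614).

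The sample order of GAMYB followed that of the grain transcripts, a pattern seen after the values were known and given without a test. The order of the summed glutelin loci was the same as that of GAMYB in all 6 samples, ascending from OEZ replicate 3 through OEZ replicate 1, ZH17 replicate 1, ZH17 replicate 3 and ZH17 replicate 2 to OEZ replicate 2. The alpha-amylase sum had this order too, except that its 2 lowest samples, OEZ replicates 1 and 3, were exchanged. The share of all tested loci with either order was not determined, so the match has no background to be judged by. The range was small for GAMYB (4.73 to 5.86 FPKM) and large for the alpha-amylase sum (1.89 to 233 FPKM). GAMYB and GA3ox2 were the 2 of 9 genes with OEZ replicates 1 and 3 below all other samples, as were 8.44% of all tested loci. Of the 6 tested alpha-amylase loci, none was called (limma), with log2 fold changes from -5.17 to -0.60 and 2 at an unadjusted p under 0.05. LOC_Os06g49970, which is 1 of these 2, had 0.744, 0.355 and 0.800 FPKM in OEZ replicates 1, 2 and 3. LOC_Os08g36910 had 0.981, 0.653 and 0.650 FPKM in these samples. Neither was highest in OEZ replicate 2 among the OEZ samples, whereas the other tested alpha-amylase loci were. The part of grain tissue in the values of GAMYB and GA3ox2 was not tested.

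**Figure D4:**
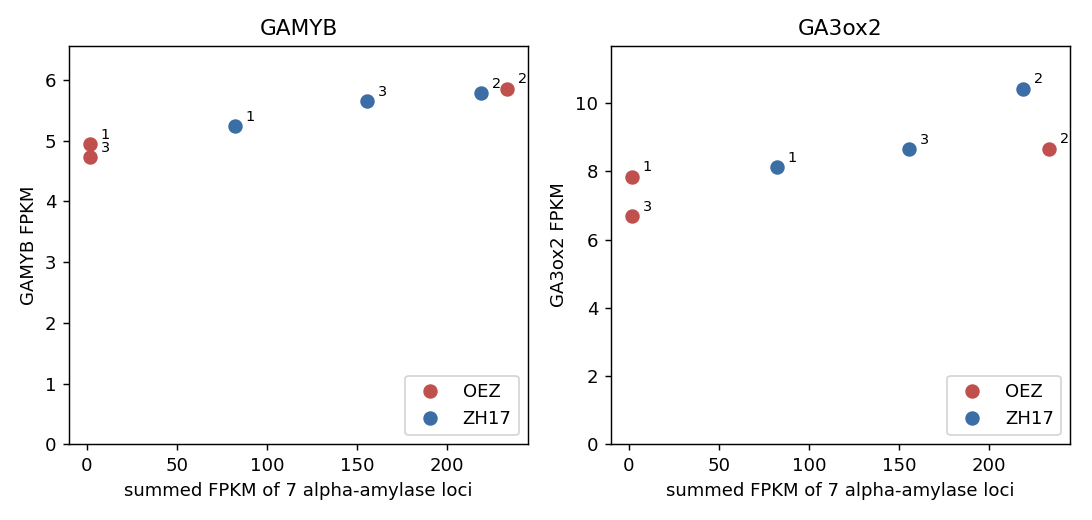
FPKM of GAMYB (left) and GA3ox2 (right) against the summed FPKM of 7 alpha-amylase loci, 1 point per sample with its replicate number, OEZ in red and ZH17 in blue. OEZ replicates 1 and 3 sit near 0 on the x axis and lowest on the y axis in both panels, and OEZ replicate 2 sits at 233.

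Beyond the 10 genes, 22 further loci of the pathway were examined, grouped by general knowledge of the loci rather than by a file at hand, and 18 of them were tested. Of the 18, 1 was called higher in OEZ and none lower (limma), beside 1.56% and 1.42% of all tested loci. The median log2 fold change of the 18 was 0.07, and 13 were positive, as were 53.3% of all tested loci. By group, 0 of 5 early synthesis loci, 1 of 1 tested GA 20-oxidase locus, 0 of 9 inactivation loci and 0 of 3 signalling loci were called (limma), and 3 of the 18 had an unadjusted p under 0.05, beside 23.2% of all tested loci. Samples of the genotypes did not overlap in 6 of the 18 (33.3%), beside 29.2% of all tested loci.

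The called locus was LOC_Os03g42130 on chromosome 3, described as a putative gibberellin 20 oxidase 2 in the annotation the study used, though the SD1 gene carries that name in this set. It had 48.4, 38.8 and 47.3 FPKM in OEZ replicates 1, 2 and 3, against 24.4, 29.6 and 29.2 FPKM in ZH17 replicates 1, 2 and 3. All OEZ samples were above all ZH17 samples. The log2 fold change was 0.69 (standard error 0.11, 95% interval 0.43 to 0.95, limma adjusted p = 0.0187). The locus was 13.2 times the mean of GA20ox2 in OEZ and 6.56 times in ZH17. The call was lost without OEZ replicate 1 (adjusted p = 0.0757), without OEZ replicate 3 (adjusted p = 0.0853) and without ZH17 replicate 2 (adjusted p = 0.0538), while the log2 fold change stayed between 0.60 and 0.79. It was also lost without the variance trend of limma (adjusted p = 0.0545). The study lists this locus as changed in the same libraries, so the call is not independent evidence.

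The most abundant loci of the other groups did not pass. LOC_Os06g37364, of the early synthesis group, had 13.3, 16.4 and 14.8 FPKM in OEZ, against 10.9, 12.6 and 11.6 FPKM in ZH17 (log2 fold change 0.34, standard error 0.10, limma adjusted p = 0.101). LOC_Os05g11810, of the inactivation group, had 37.2, 36.2 and 37.9 FPKM in OEZ, against 49.2, 43.9 and 38.6 FPKM in ZH17 (log2 fold change -0.24, standard error 0.09, limma adjusted p = 0.18). Its level was close to that of GA2ox3, and as there the ZH17 samples were spread while the OEZ samples were nearly equal. LOC_Os05g26890, of the signalling group, had 33.8, 33.3 and 31.1 FPKM in OEZ, against 30.2, 28.8 and 30.7 FPKM in ZH17 (log2 fold change 0.13, standard error 0.06, limma adjusted p = 0.254). The genotypes did not overlap in these 3 loci, which are among the 6 counted above.

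None of the 10 genes is among those the study lists as changed, but 6 loci with a gibberellin description are, LOC_Os03g42130 included. The study chose them from these libraries, so their directions are no independent evidence. Of the 6, 3 were called higher and 1 lower in OEZ by limma. LOC_Os01g06220, described as a GID1L2 gibberellin receptor, had 21.8, 28.9 and 30.7 FPKM in OEZ, against 11.8, 16.4 and 11.6 FPKM in ZH17 (log2 fold change 1.03, standard error 0.18, limma adjusted p = 0.0218). GID1L2 is a description that carboxylesterase-like proteins related to GID1 often carry, and the GID1 gene itself did not pass.

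LOC_Os09g28690, with the same description, had 8.65, 8.73 and 9.45 FPKM in OEZ, against 5.60, 5.77 and 4.30 FPKM in ZH17, which is 0.78 higher on the log2 scale (standard error 0.13, limma adjusted p = 0.0193). LOC_Os03g15270, also described as GID1L2, went the other way, with 4.55, 4.24 and 5.26 FPKM in OEZ, against 7.24, 6.92 and 7.25 FPKM in ZH17, which is a difference of -0.60 on the log2 scale (standard error 0.11, limma adjusted p = 0.0233). In these 3 loci the samples of the genotypes did not overlap. Each of the 3 calls was lost when some single samples were left out. That of LOC_Os01g06220 was also lost without the variance trend of limma (adjusted p = 0.0596), and LOC_Os03g15270 fell short of 1.5-fold with a pseudocount of 1 (-0.52 on the log2 scale). LOC_Os01g06220 was not called without OEZ replicate 2 (adjusted p = 0.0813), OEZ replicate 3 (0.0908) or ZH17 replicate 1 (0.0534). LOC_Os09g28690 was not called without OEZ replicate 1 (adjusted p = 0.0704), 2 (0.0675) or 3 (0.0893), and LOC_Os03g15270 not without OEZ replicate 1 (0.0854), OEZ replicate 2 (0.0769), ZH17 replicate 1 (0.0574) or ZH17 replicate 2 (0.0828).

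Whether the other 2 loci passed depended on ZH17 replicate 3. LOC_Os02g41954, described as gibberellin 2-beta-dioxygenase 7, had 3.90, 2.65 and 3.98 FPKM in OEZ, against 12.6, 10.6 and 2.60 FPKM in ZH17. The third ZH17 value was the lowest of all 6 samples, and the difference of -1.01 on the log2 scale (standard error 0.55, limma adjusted p = 0.327) became -1.71 without ZH17 replicate 3 (adjusted p = 0.00784). LOC_Os09g24840, described as GASR10 of the gibberellin-regulated GASA family, had 44.1, 38.0 and 46.2 FPKM in OEZ, against 27.7, 28.9 and 15.6 FPKM in ZH17. Its difference of 0.87 on the log2 scale (standard error 0.23, limma adjusted p = 0.0746) was 0.59 without ZH17 replicate 3 and then passed (adjusted p = 0.0187). This locus lies in a stretch of chromosome 9, from LOC_Os09g24720 to LOC_Os09g27040, in which 112 loci were tested. The median of their log2 fold changes was 0.93, but the limits of the stretch were drawn with earlier results of these data known. That median is therefore no independent evidence. None of the 10 genes lies in the stretch. The chlorophyll A-B binding locus that was called higher in OEZ, LOC_Os09g26810, lies in the same stretch (log2 fold change 0.67).

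**Figure D5:**
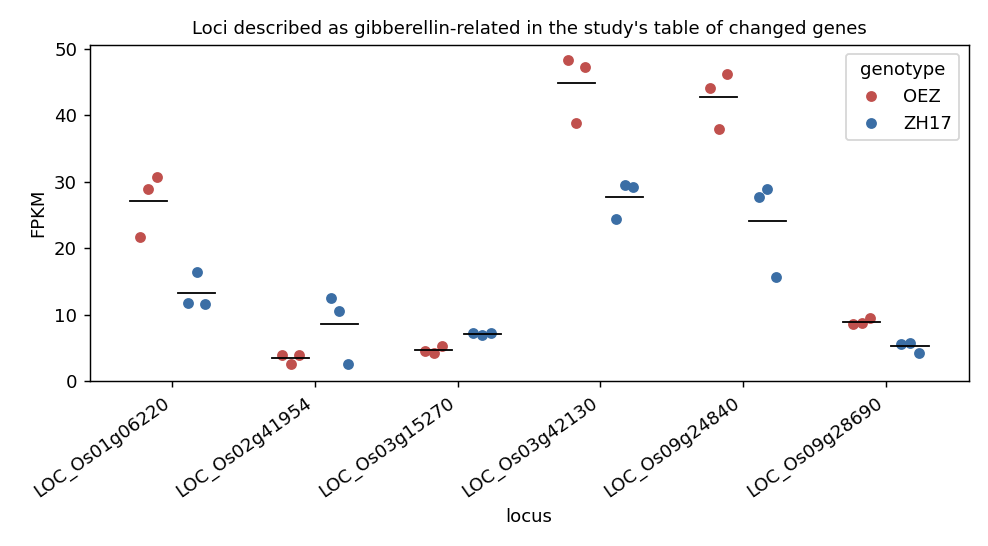
FPKM of the 6 loci with a gibberellin description in the study's table of changed genes, 1 point per sample (OEZ left, ZH17 right) with a bar at the mean. LOC_Os01g06220, LOC_Os03g42130 and LOC_Os09g28690 are higher and LOC_Os03g15270 is lower in every OEZ sample, and ZH17 replicate 3 stands apart in LOC_Os02g41954 (2.60 FPKM) and LOC_Os09g24840 (15.6 FPKM).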

How the data were processed

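Reads of paired-end libraries were aligned by the authors to the Nipponbare genome (IRGSP-1.0, MSU7 annotation) using TopHat2 with its defaults, and the authors calculated the deposited FPKM per locus with Cuffdiff. Tool versions and the scaling between libraries are not given in the sources used here. The files hold 1 FPKM value per locus and sample, so no depth in reads is known. The limma p values set a difference of means against the spread between pools, moderated by the spread of all tested loci.

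Loci whose 6 samples averaged 0.5 FPKM or more were compared on log2(FPKM + 0.1) with limma 3.58.1 (R 4.3.3), with a variance trend and Benjamini-Hochberg adjustment over all 22841 tested loci. The thresholds were those of the study. The Cuffdiff test needs reads and was not repeated. The limma step was tested on simulated data. Single genes were also compared by exact permutation (scipy 1.17.1). Alternatives were other pseudocounts, filters and scalings, no variance trend, other fold criteria, the replicate number as a block, and leaving out each sample.

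The 10 genes, the pathway loci and the marker lists were chosen with earlier results of these data known. Named loci are the 10 genes, called pathway loci, the most abundant locus of each pathway group, the gibberellin loci of the study's table and OsLTPL159. LOC_Os01g11150, LOC_Os06g49970, LOC_Os08g36910 and LOC_Os09g26810 were added after their values were seen. Of the 21 grain loci, 18 were tested. The 1 root marker, LOC_Os02g44310, did not pass (log2 fold change 0.45, limma adjusted p = 0.163). No sequences were at hand.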

Additional observations from a re-analysis of the deposited data

How the results depend on the processing

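None of the 9 genes was called under any alternative run, although GA2ox1 was not tested at a minimum mean of 1 FPKM, nor GA2ox1 and GA20ox2 at 5 FPKM. Signs turned in 2 of them when samples were left out in turn, where the log2 fold change ran from -0.27 to 0.20 for GA20ox1 and from -0.37 to 0.10 for GA2ox3. Of all tested loci, 681 were called, 1371 without a criterion on fold change, 290 when the fold criterion was 2, and 327 to 967 when samples were left out in turn. The count of called loci among the 18 other pathway loci was 1, it was 0 without the variance trend and also with the fold criterion of 2, and it was 0 to 2 when samples were left out. With the replicate block, 321 of all tested loci and 0 of the other pathway loci were called, and of the 4 called loci with a gibberellin description in the study's table LOC_Os03g42130, LOC_Os09g28690 and LOC_Os03g15270 were lost (limma adjusted p = 0.081, 0.0844 and 0.0848). The replicate numbers share no stated origin, and deviations of same-numbered samples from their genotype means correlated at -0.06 to 0.03, so they were not taken as pairs. The precision of the low values of GA2ox1, GA20ox2 and GA3ox1 cannot be stated, since the depth in reads is unknown.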

Other observations

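Set against the GA20ox2 gene within each sample, LOC_Os03g42130 was 11.9, 10.9 and 18.4 times as high in OEZ replicates 1, 2 and 3, against 7.20, 7.98 and 5.23 times in ZH17 replicates 1, 2 and 3. Set against GA20ox1, it was 5.96, 5.23 and 8.06 times as high in OEZ, against 5.35, 3.56 and 3.34 times in ZH17. The first ratio did not overlap between the genotypes and the second did. LOC_Os03g42130 alone did not overlap either, so the first ratio is no separate evidence of a difference. Both ratios were formed after the values had been seen and were not tested.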
